A study of Homo sapiens with 6 samples.

Results

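The miR-99/100 and miR-125 families were followed in small-RNA libraries of exosomes from HCT116, a human colorectal carcinoma cell line long in use. The 5 members were the entries with the exact names hsa-miR-99a-5p, hsa-miR-99b-5p, hsa-miR-100-5p, hsa-miR-125a-5p and hsa-miR-125b-5p (hsa- is left out below), taken from the 2588 mature miRNA entries of each deposited table. Cells had received a control siRNA (siCTL, 3 libraries) or an siRNA against PRDX3, a mitochondrial peroxiredoxin (siPRDX3, 3 libraries), by NEON microporation, and were left for 40 h. They then spent 24 h in medium with nanoparticle-free serum before exosomes were isolated with a kit. All 6 libraries come from 1 cell line, and the labels do not say whether the 3 libraries of a group were separate cultures. P-values here therefore speak only to how these libraries vary, and that variation may be technical. A miRNA assay does not read PRDX3 mRNA, so the depletion itself was not checked. The design text also names another siRNA and endothelial cells, against the titles and the cell line of every sample, and the titles were followed.

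Human miR-99a, miR-99b and miR-100 share a seed, the stretch near the 5′ end through which a miRNA recognises its targets, and are known to repress MTOR and IGF1R. miR-125a and miR-125b are the vertebrate relatives of lin-4, the founding miRNA of worms, and repress LIN28 among others, the RNA-binding protein that blocks let-7 maturation. The families are encoded next to let-7 genes in clusters that are kept from flies to vertebrates. In colorectal cancer, miR-100 and miR-125b, both from the host transcript MIR100HG, have been linked to cetuximab resistance.

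The mature sequences are shown because 1 base separates entries whose levels are compared here. They are RefSeq sequences on GRCh38.p14, written 5′ to 3′, with the seed (bases 2 to 8) in capitals.
miR-100-5p: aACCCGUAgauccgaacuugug
miR-99a-5p: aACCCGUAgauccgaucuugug
miR-99b-5p: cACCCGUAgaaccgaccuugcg
miR-125a-5p: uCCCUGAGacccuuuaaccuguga
miR-125b-5p: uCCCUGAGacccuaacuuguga
miR-10a-5p: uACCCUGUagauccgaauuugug
Counted from base 1 at the 5′ end, miR-99a-5p differs from miR-100-5p by A16U alone, so 21 of 22 bases are identical. miR-99b-5p differs from miR-100-5p by A1C, U11A, A16C and U21C. miR-125a-5p and miR-125b-5p share their first 13 bases and their last 5. miR-10a-5p, a relative encoded in the HOXB cluster, shares a run of 11 bases with miR-100-5p (GUAGAUCCGAA) but has another seed. Of the 2281 deposited entries with a sequence in the RefSeq table, 3 carry the seed ACCCGUA, all of them members. The seed CCCUGAG is carried by 3 entries, of which miR-4319 had no read in any library. How the authors divided reads between entries this similar is not given in the sources used here, so miR-99a-5p beside miR-100-5p is the least certain entry.

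By GENCODE v29 (GRCh38), the hairpins lie in 3 clusters. On the minus strand of chromosome 11, in introns of the non-coding MIR100HG, MIR100 (chr11:122152229-122152308) is followed 5.71 kb downstream by MIRLET7A2 and 52.5 kb downstream by MIR125B1 (chr11:122099757-122099844). On the plus strand of chromosome 19, in an intron of SPACA6 and opposite an exon of SPACA6P-AS, MIR99B (chr19:51692612-51692681), MIRLET7E (chr19:51692786-51692864) and MIR125A (chr19:51693254-51693339) start within 0.642 kb. On the plus strand of chromosome 21, in introns of the non-coding MIR99AHG, MIR99A (chr21:16539089-16539169) lies 0.739 kb before MIRLET7C and 51.1 kb before MIR125B2 (chr21:16590237-16590325). miR-125b-5p is thus made by a hairpin on chromosome 11 and another on chromosome 21, and its reads carry no mark of either.

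**Figure D1:**
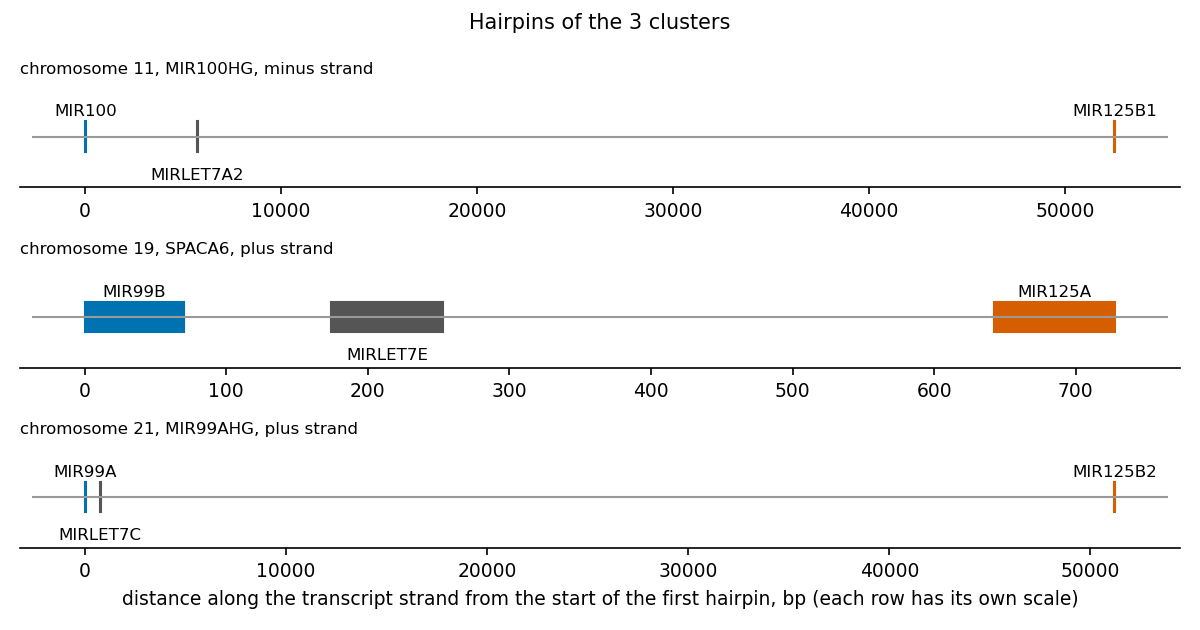
Positions of the 9 hairpins (boxes) along each cluster, as distance in bp from the start of its first hairpin; blue boxes are miR-99/100 hairpins, grey boxes let-7 and orange boxes miR-125. The cluster on chromosome 19 spans under 1 kb, while MIR125B1 and MIR125B2 start 52464 and 51148 bp from the first hairpin of theirs.

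The deposited values are on a log2(value + 1) scale, and their linear values fall on whole multiples of 1 step per library, so reads could be recovered. Depth was 40146, 80950 and 124735 miRNA reads for siCTL 1, 2 and 3, and 230946, 96660 and 70678 for siPRDX3 1, 2 and 3. siCTL 1 and siCTL 2 stood apart by tested miRNAs without reads. Of the 80 miRNAs with enough reads to be tested, 30 and 23 had no read there, against 0 in siCTL 3 and 1 to 8 in siPRDX3. Entry into the 80 took 3 libraries, so miRNAs seen in siCTL 1 and siCTL 2 alone could not count. Over all entries siPRDX3 2 lay nearer to these libraries. Entries with reads numbered 137 and 190 in siCTL 1 and siCTL 2, 215 in siPRDX3 2 and 272 to 356 in the others. The entry miR-4451 took 49.4% and 76.9% of the reads of siCTL 1 and siCTL 2. It took 47.7% of siPRDX3 2 and between 11.8% and 40% of the others. Differences that turn direction without siCTL 1 and siCTL 2 are marked as such. Intervals are exact 95% Clopper-Pearson intervals and cover counting error only, since no molecular identifiers are used here to tell PCR copies of a molecule apart.

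The families were nearly missing from siCTL 1 and siCTL 2 and made up a few percent of the other libraries. The 5 members together accounted for 1, 6 and 2361 reads of siCTL 1, 2 and 3, and for 9572, 1801 and 2644 of siPRDX3 1, 2 and 3. As shares of reads these were 0.00249%, 0.00741% and 1.89% (95% interval 1.82 to 1.97) in siCTL and 4.14% (4.06 to 4.23), 1.86% (1.78 to 1.95) and 3.74% (3.6 to 3.88) in siPRDX3. The highest siCTL library, siCTL 3, lay just above the lowest siPRDX3 library, siPRDX3 2, and their intervals overlapped. The siCTL mean was 0.634% ± 1.09 and the siPRDX3 mean 3.25% ± 1.22 (SD, n = 3 each), a difference of 2.62 percentage points that was 1.36 without siCTL 1 and siCTL 2 and 4.06 with miR-4451 left out of the totals. Fewer exosomes of one origin and less of a miRNA per exosome cannot be told apart in such data. Of the 16385 reads of the 5 members, miR-100-5p gave 69.6%, miR-99b-5p 15.8%, miR-125a-5p 9.04%, miR-125b-5p 4.74% and miR-99a-5p 0.793%. These pooled shares lean on siPRDX3 1, which gave 9572 of the reads. Without it, miR-100-5p gave 61.4%, miR-99b-5p 32.9%, miR-125a-5p 2.74%, miR-125b-5p 1.79% and miR-99a-5p 1.19%. As a joint share, the 3 miR-99/100 members did not overlap between groups (at most 1.65% in siCTL, at least 1.86% in siPRDX3). Taken singly, miR-100-5p and miR-99b-5p, which gave most of that share, overlapped both as shares and as deposited levels. The joint level on the deposited scale was not compared. Of the 80 tested miRNAs, 12.5% also lay higher in siPRDX3 without overlap as shares, a figure for single miRNAs and not for sums.

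**Figure D2:**
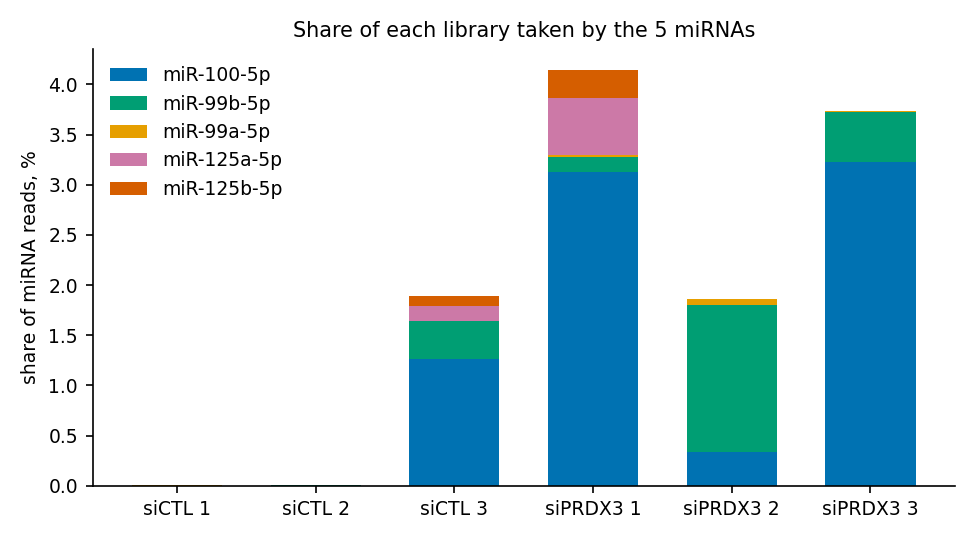
Share of the miRNA reads of each library, in percent, taken by each of the 5 members (stacked bars). siCTL 1 and siCTL 2 hold 0.00249% and 0.00741% and show no visible bar, and the make-up of the other 4 bars differs between libraries, with miR-99b-5p leading in siPRDX3 2 and miR-100-5p in the rest.

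miR-100-5p was the most abundant member in siCTL 3, siPRDX3 1 and siPRDX3 3. Its reads numbered 0, 1 and 1574 across siCTL 1, 2 and 3, and 7228, 321 and 2284 across siPRDX3 1, 2 and 3. Its share was 1.26% in siCTL 3 and 3.13%, 0.332% and 3.23% in siPRDX3, so siCTL 3 lay between the siPRDX3 libraries and the groups overlapped. It ranked 7 among all entries of siPRDX3 3, 10 in siPRDX3 1, 18 in siCTL 3 and 28 in siPRDX3 2. At the share of siCTL 3, siCTL 1 would have held 507 reads of it and siCTL 2 1021, against the 0 and 1 counted. With 0 reads, siCTL 1 could still hold a share of up to 0.00747% (3 reads of its total).

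Reads of miR-99b-5p numbered 0, 1 and 475 across siCTL 1, 2 and 3, and 347, 1420 and 347 across siPRDX3 1, 2 and 3. Its share was highest in siPRDX3 2 (1.47%), where it took 78.8% of the reads of the 5 members, and lay at 0.381%, 0.15% and 0.491% in siCTL 3, siPRDX3 1 and siPRDX3 3. The order of the family's leading members was thus turned around in siPRDX3 2. miR-100-5p gave 18.4% of the reads of miR-100-5p and miR-99b-5p there (95% interval 16.6 to 20.3), against 76.8% (74.9 to 78.6), 95.4% (94.9 to 95.9) and 86.8% (85.5 to 88.1) in siCTL 3, siPRDX3 1 and siPRDX3 3.

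miR-99a-5p had the fewest reads of the 5 over all libraries (130) but was the only one with reads in all 6. It was the scarcest in siCTL 3 and siPRDX3 1, and had more reads than either miR-125 member in the other 4 libraries. The siCTL libraries 1, 2 and 3 gave 1, 4 and 7 reads, and the siPRDX3 libraries 49, 57 and 12. Its deposited log2 levels were 4.70, 6.34 and 5.83 for siCTL, and 7.20, 8.66 and 6.35 for siPRDX3. The groups did not overlap, though siPRDX3 3 lay above siCTL 2 only by the gap from 6.337 to 6.351. The same direction without overlap was found for 7.5% of the 80 tested miRNAs on this scale. As shares of reads, miR-99a-5p ranged from 0.00249% to 0.00561% in siCTL and from 0.017% to 0.059% in siPRDX3, where 12.5% of the tested miRNAs did not overlap in that direction. Counting error is large here, with an interval of 0.00226% to 0.0116% in siCTL 3 and of 0.00877% to 0.0297% in siPRDX3 3. Of the reads of miR-100-5p and miR-99a-5p together, miR-99a-5p gave 0.443%, 0.673% and 0.523% in siCTL 3, siPRDX3 1 and siPRDX3 3. It gave 15.1% (95% interval 11.6 to 19.1) in siPRDX3 2. In siCTL 1 and siCTL 2 it had 1 and 4 reads beside 0 and 1 of miR-100-5p. Whether reads of one entry were counted for the other was not tested.

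**Figure D3:**
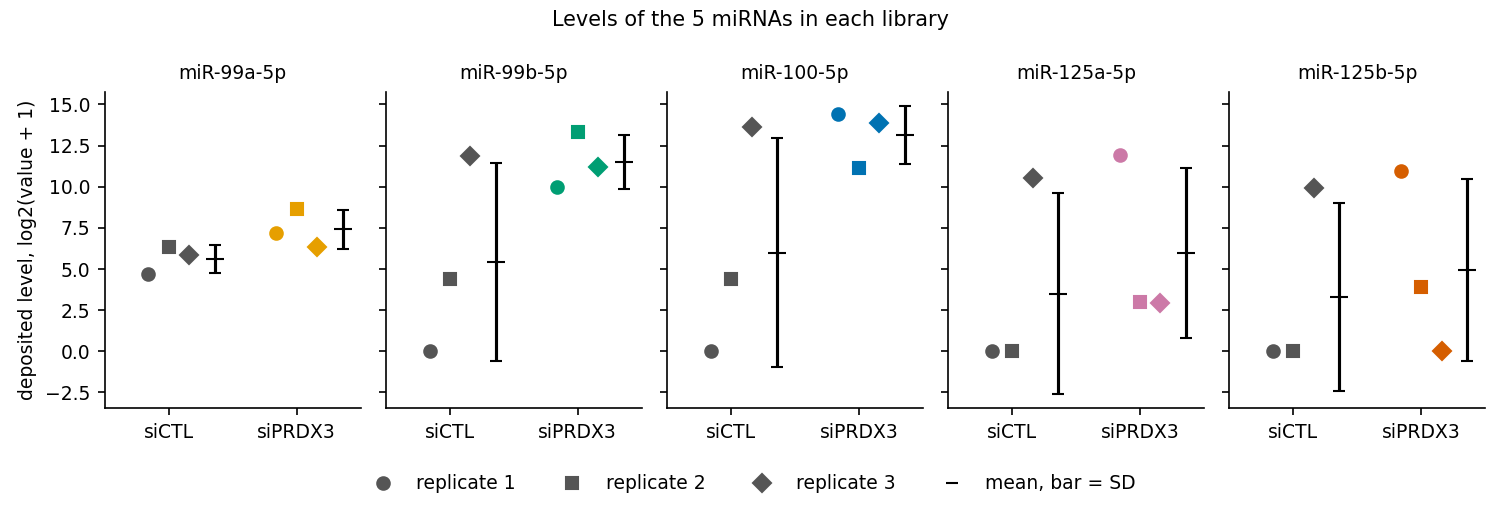
Deposited level, log2(value + 1), of each member in each library (circle, square and diamond for replicates 1, 2 and 3), with the mean and SD of each group in black. Apart from miR-99a-5p, every member lies at 0 in siCTL 1 and at 0 or at 4.39, the level of 1 read, in siCTL 2, and siPRDX3 2 and siPRDX3 3 lie low for miR-125a-5p and miR-125b-5p.

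The miR-125 members were found in quantity in siCTL 3 and siPRDX3 1 only. Reads of miR-125a-5p numbered 0, 0 and 185 across siCTL 1, 2 and 3, and 1294, 1 and 1 across siPRDX3 1, 2 and 3. Those of miR-125b-5p numbered 0, 0 and 120, and 654, 2 and 0, in the same order. In both groups, then, 1 library held nearly all reads of the miR-125 members, and siPRDX3 1 held the most. Their shares were 0.148% and 0.0962% in siCTL 3 and 0.56% and 0.283% in siPRDX3 1, and no other library exceeded 0.00207%. By the same limit, 0 reads leave room for up to 0.00371% in siCTL 2 and up to 0.00424% in siPRDX3 3. miR-125a-5p gave 60.7% (95% interval 54.9 to 66.2) of their joint reads in siCTL 3 and 66.4% (64.3 to 68.5) in siPRDX3 1, and these intervals overlapped.

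Near-absence from siCTL 1 and siCTL 2 was shared by many well-covered entries and near-absence from siPRDX3 2 and siPRDX3 3 by few, in a count made after the values were seen. Of the 53 entries with at least 100 reads in both siCTL 3 and siPRDX3 1, 20 (37.7%) had at most 1 read in siCTL 1 and at most 1 in siCTL 2. These included miR-100-5p, miR-99b-5p, miR-125a-5p and miR-125b-5p. At most 2 reads in siPRDX3 2 and at most 2 in siPRDX3 3 were seen for 5 of the 53 (9.43%). They were miR-125a-5p, miR-125b-5p, miR-181a-5p, miR-200a-3p and miR-4474-3p, and all but miR-4474-3p were also at 2 reads or fewer in siCTL 1 and siCTL 2.

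The test of siPRDX3 against siCTL took in 3 members after a filter on low values. Entry into the test took a CPM of 113 (the worth of 10 reads in a library of median size) in 3 or more libraries, and 15 reads in all. miR-125a-5p and miR-125b-5p reached that level in 2 libraries each and were left out by it. With no filter, over 686 miRNAs, limma gave them log2 differences of 2.45 (adjusted p = 0.578) and 1.65 (adjusted p = 0.719). These differences rested on siCTL 1 and siCTL 2, since the levels of siCTL 3 (10.53 and 9.90) lay above the siPRDX3 means of 5.96 ± 5.15 and 4.95 ± 5.53 (SD, n = 3). They rested on siPRDX3 1 as well, which stood at 11.91 and 10.93. siPRDX3 2 and siPRDX3 3 stood at 3.02 and 2.95 for miR-125a-5p, and at 3.92 and 0 for miR-125b-5p. The siCTL means were 3.51 and 3.30. miR-99a-5p reached the CPM of 113 in the 3 siPRDX3 libraries alone, so its direction was favoured by its entry into the test. By limma on the deposited log2 levels, 0 of the 3 members passed an adjusted p of 0.05, as did 0% of the 80 miRNAs. At an unadjusted p under 0.05 there were 0 members and 6 of the 80 miRNAs (7.5%), and limma-voom called 1 of the 80, which is no member, with 12 unadjusted. miR-100-5p was under that unadjusted threshold in 6 of the 8 alternatives that kept all libraries, with limma p-values from 0.00215 with no filter to 0.0784 with the stricter filter. miR-99b-5p was so in 1 of 8, with no filter (0.019), and the adjusted p of both stayed above 0.05 in all 8. For miR-100-5p the fit with no filter gave the same log2 difference as the limma fit over the 80 miRNAs (7.15). Its SE was smaller there, at 2.33 against 3.36. With 1 library left out, limma put miR-100-5p and miR-99b-5p under the unadjusted threshold only without siCTL 3.

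miR-100-5p stood at a mean of 6.002 ± 6.95 for siCTL and of 13.15 ± 1.75 for siPRDX3 on the log2 scale (SD, n = 3 each). This is a log2 difference of 7.15 (SE 3.36, 95% interval −0.77 to 15.06, adjusted p = 0.491 by limma). It ranked 5 from the top by fold change among the 80. miR-99b-5p averaged 5.43 ± 6.01 and 11.50 ± 1.66, a log2 difference of 6.07 (SE 3.05, −1.09 to 13.24, adjusted p = 0.491 by limma). miR-99a-5p averaged 5.62 ± 0.84 and 7.40 ± 1.17, a log2 difference of 1.78 (SE 1.75, −2.33 to 5.89, adjusted p = 0.59 by limma). The median over all tested miRNAs was itself 1.72, and 63.8% had a fold change above 0, so miR-99a-5p stood close to the median of the table. On library totals that median was 2.57, and the fold changes of the 3 members moved with it, to 8.08, 7.01 and 2.72 for miR-100-5p, miR-99b-5p and miR-99a-5p. For a miRNA at 0 reads in some libraries the fold change depends on the added 1, and with the largest step (25.04) added instead it was 5.24 for miR-100-5p and 4.17 for miR-99b-5p.

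Both large fold changes rested on siCTL 1 and siCTL 2. Without these libraries, siCTL 3 was the only control left. The log2 fold change was then −0.47 for miR-100-5p, −0.39 for miR-99b-5p and 1.57 for miR-99a-5p. The median over all tested miRNAs was −1.15 in that setting, with 21.2% above 0. The shares of reads of miR-100-5p and miR-99b-5p still lay higher in siPRDX3 there, by 0.969 and 0.323 percentage points. The direction of these 2 members thus depended on the measure used. Without siCTL 3 instead, miR-100-5p (10.95, limma adjusted p = 0.00797) and miR-99b-5p (9.30, adjusted p = 0.0132) passed. They were among 20 of the 80 tested miRNAs that did, 19 of them higher in siPRDX3, so such calls were not particular to the members. The call for miR-100-5p and miR-99b-5p thus depends on which siCTL libraries enter. The part of library make-up in this, with miR-4451 at 49.4% and 76.9% in siCTL 1 and siCTL 2, was not tested beyond leaving that entry out of the library totals, which gave 7.94 for miR-100-5p and 6.86 for miR-99b-5p.

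**Figure D4:**
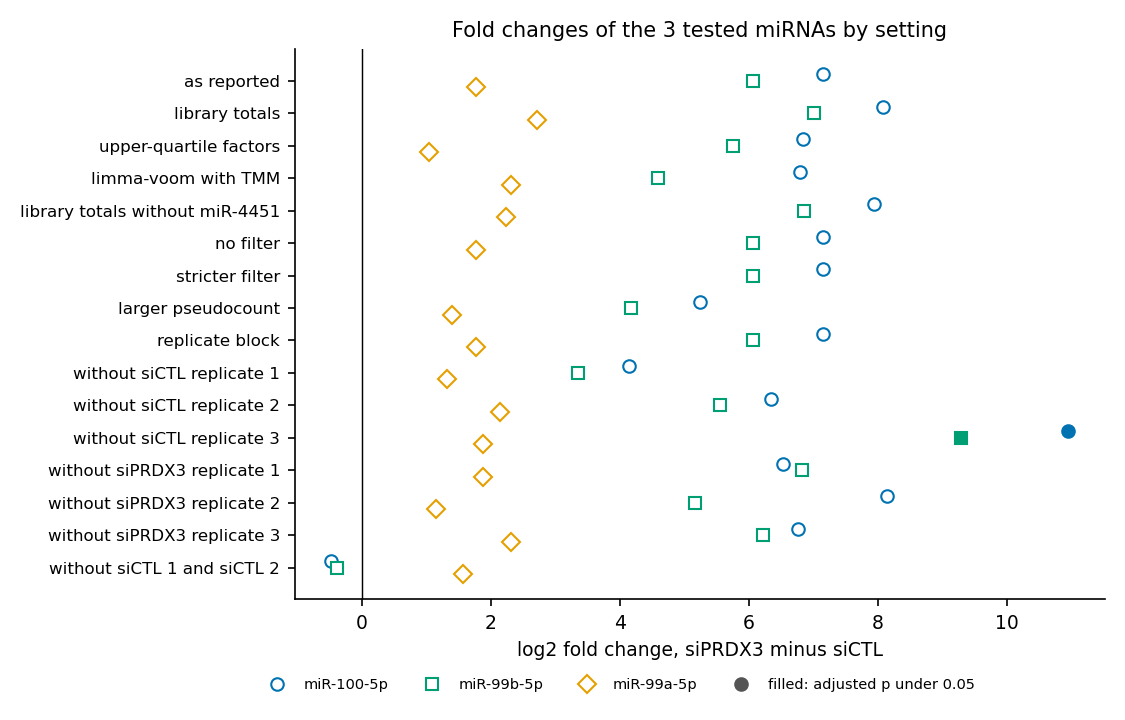
Log2 fold change (siPRDX3 minus siCTL) of the 3 tested members under each way of processing the data (rows); filled symbols have a limma adjusted p under 0.05. Only the setting without siCTL replicate 3 has filled symbols, and without siCTL 1 and siCTL 2 the fold changes of miR-100-5p and miR-99b-5p lie just below 0.

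Members of 1 cluster were not present in a fixed proportion. On chromosome 19, where the hairpins are closest, miR-125a-5p gave 28% (95% interval 24.6 to 31.6) of the reads of miR-99b-5p and miR-125a-5p in siCTL 3 and 78.9% (76.8 to 80.8) in siPRDX3 1. In siPRDX3 2 and siPRDX3 3 it gave 0.0704% and 0.287%, with 1 read beside 1420 and 1 beside 347. The log2 ratio of miR-99b-5p to miR-125a-5p ran from −1.90 to 10.47 over the 4 libraries with reads of both. The third product of that cluster, let-7e-5p, went with miR-99b-5p more than with miR-125a-5p. Reads of let-7e-5p numbered 1, 4 and 750 across siCTL 1, 2 and 3, and 527, 130 and 328 across siPRDX3 1, 2 and 3. It gave 61.2%, 60.3%, 8.39% and 48.6% of the reads of let-7e-5p and miR-99b-5p in siCTL 3 and siPRDX3 1, 2 and 3. The log2 ratio of miR-99b-5p to let-7e-5p spanned 5.45 over 5 libraries, and that of miR-125a-5p to let-7e-5p spanned 9.66 over 4.

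On chromosome 11, miR-125b-5p gave 7.08% (95% interval 5.91 to 8.41) of the reads of miR-100-5p and miR-125b-5p in siCTL 3 and 8.3% (7.7 to 8.93) in siPRDX3 1, and these intervals overlapped. It gave 0.619% in siPRDX3 2 (2 of 323 reads) and 0% in siPRDX3 3, where 0 of 2284 allows up to 0.131%. miR-100-5p was thus counted in siPRDX3 3 with no read of miR-125b-5p, although miR-125b-1-3p, from the same MIR125B1 hairpin, had 1 read there. let-7a-5p, which is made by 3 hairpins of which MIRLET7A2 is 1, stayed abundant where miR-100-5p was missing, with 2387 and 1836 reads in siCTL 1 and siCTL 2. miR-100-5p gave 0% and 0.0544% of their joint reads there and 17.4%, 27.5%, 10.7% and 41.4% in siCTL 3 and siPRDX3 1, 2 and 3.

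On chromosome 21, miR-99a-5p gave 5.51% and 6.97% of the reads of miR-99a-5p and miR-125b-5p in siCTL 3 and siPRDX3 1. It gave 96.6% (57 of 59 reads) in siPRDX3 2. The miR-125b-5p reads are the same ones set beside miR-100-5p above, and they cannot be assigned to the hairpin of either chromosome. With let-7c-5p, its nearer neighbour, miR-99a-5p formed the only ratio between cluster members with reads of both in all 6 libraries. Reads of let-7c-5p numbered 136, 676 and 463 across siCTL, and 963, 337 and 277 across siPRDX3. miR-99a-5p gave 0.73%, 0.588% and 1.49% of their joint reads for siCTL 1, 2 and 3, and 4.84%, 14.5% and 4.15% for siPRDX3 1, 2 and 3. On the deposited scale miR-99a-5p lay higher and let-7c-5p lower in every siPRDX3 library, so the direction of their ratio was already set. The mean log2 ratio of the siCTL libraries was −6.85 ± 0.71 and that of the siPRDX3 libraries −3.80 ± 1.07 (SD, n = 3 each), a difference of 3.05. siCTL 3 alone stood at −6.05. A ratio within a library does not depend on the scaling between libraries. It rests on 1 to 7 reads of miR-99a-5p in siCTL, no test was planned for it, and the interval of siCTL 3 (0.601% to 3.04%) overlapped that of siPRDX3 3 (2.16% to 7.14%).

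**Figure D5:**
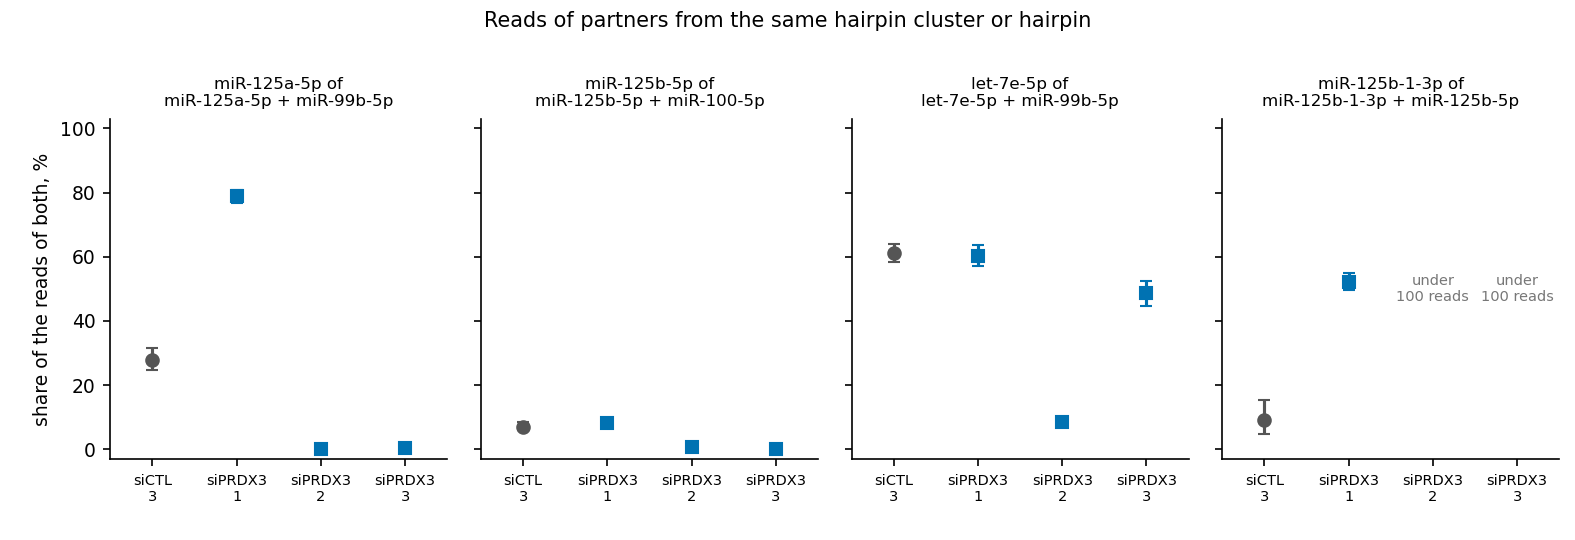
Share of the joint reads of a pair, in percent, given by the miRNA named first in each panel, in siCTL 3 (circle) and the siPRDX3 libraries (squares) where the pair has at least 100 reads, with exact 95% intervals. miR-125a-5p and miR-125b-5p drop to near 0 in siPRDX3 2 and siPRDX3 3, while let-7e-5p lies at 8.39% in siPRDX3 2 and 48.6% in siPRDX3 3.

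Of the 3 let-7 partners, 3 were tested and 0 passed by limma, with 0 at an unadjusted p under 0.05. Log2 fold changes were 2.66 (SE 2.27) for let-7e-5p, −0.82 (SE 0.70) for let-7a-5p and −1.25 (SE 1.15) for let-7c-5p, with a limma adjusted p of 0.59 each. For let-7e-5p this rested on siCTL 1 and siCTL 2: it was −2.02 without them (limma adjusted p = 0.797) and 5.00 without siCTL 3 (limma adjusted p = 0.0372), as siCTL 3 lay above every siPRDX3 library. let-7a-5p turned to 0.13 on library totals and to 0.06 by limma-voom, so its direction depends on the scaling. let-7c-5p lay lower in every siPRDX3 library than in any siCTL library on the deposited scale, as did 8.75% of the tested miRNAs, but overlapped as a share of reads (0.339% to 0.835% against 0.349% to 0.417%).

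The opposite arms of the hairpins were read unevenly, which is shown with the MIR125B1 and MIR125A hairpins, where both arms are in capitals.
MIR125B1: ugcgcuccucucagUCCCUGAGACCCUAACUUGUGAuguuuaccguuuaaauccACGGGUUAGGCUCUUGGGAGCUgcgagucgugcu
MIR125A: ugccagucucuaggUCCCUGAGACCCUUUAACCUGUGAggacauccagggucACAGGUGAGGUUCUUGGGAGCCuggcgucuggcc
miR-125b-1-3p, the 3′ arm of the MIR125B1 hairpin, gave 0, 0 and 12 reads across siCTL, and 717, 0 and 1 across siPRDX3. In siPRDX3 1 it gave 52.3% (95% interval 49.6 to 55) of the reads of both arms, which takes in equal numbers, against 9.09% (4.79 to 15.3) in siCTL 3. miR-125b-2-3p, which only the chromosome 21 hairpin makes, had 0 reads beside 776 of miR-125b-5p, which allows up to 0.387% of their joint reads. miR-125a-3p had 241 reads in siPRDX3 1 (15.7% of both arms; 13.9 to 17.6) and 1 in siPRDX3 3. In siCTL 3 it had 0 beside 185 of the 5′ arm, which allows up to 1.62%.

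The miR-99/100 hairpins gave almost no opposite arm. miR-100-3p had 0 reads beside 11408 of miR-100-5p, which allows up to 0.0263%, and miR-99b-3p had 0 beside 2590, which allows up to 0.116%. miR-99a-3p had 1 read, in siPRDX3 2. Of 9 opposite arms listed, the 3 of the let-7 partners also had 0 reads, and none of the 9 had enough reads to be tested.

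The miR-10 relatives did not share the pattern of miR-100-5p in siCTL 1. Reads of miR-10a-5p numbered 1406, 0 and 4537 across siCTL, and 9718, 1924 and 1183 across siPRDX3, a log2 difference of 3.75 (SE 3.92, adjusted p = 0.59 by limma). It rested on the 0 of siCTL 2 and was −1.29 without that library (limma adjusted p = 0.723). miR-10b-5p, encoded in the HOXD cluster, gave 954, 0 and 955 reads across siCTL, and 730, 26 and 11 across siPRDX3, a log2 difference of −0.86 (SE 3.87, adjusted p = 0.875 by limma). Its direction also turned with single libraries left out, from −5.44 without siCTL 2 to 1.83 without siCTL 1. siCTL 1 therefore held 1406 reads of miR-10a-5p and 0 of miR-100-5p, while siCTL 2 was empty or nearly so for both.

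Likeness of patterns was measured as the root mean square difference of log2 levels, each centred on its own mean over the 6 libraries, and is a description with no test. The entries nearest to miR-100-5p were miR-423-3p (1.52), miR-3529-3p (1.60), miR-320b (1.64), miR-92b-5p (1.71) and miR-3196 (1.74), against a median of 4.43 over the 79 other tested miRNAs. Nearest to miR-99b-5p were miR-320a (1.70), miR-222-3p (1.88), miR-25-3p (2.05), miR-92b-5p (2.06) and miR-100-5p (2.11), against a median of 4.49. let-7e-5p, the cluster partner of miR-99b-5p, came at rank 14 of 79 (2.43). This rank leans on very few reads, since in siCTL 1 let-7e-5p had 1 read (level 4.70) and miR-99b-5p 0 reads (level 0). It therefore says little about genomic neighbourhood. The other ranks given here that set 0 reads beside 1 in siCTL 1 share this limit. Seen from miR-100-5p, let-7a-5p came at rank 54. Nearest to miR-99a-5p were let-7f-5p (1.03), miR-92a-3p (1.40), miR-4497 (1.42), miR-3591-3p (1.49) and let-7b-5p (1.56), with let-7c-5p at rank 9 (1.68) and a median of 3.04. miR-100-5p, although 1 base apart in sequence, came at rank 67 of 79 from miR-99a-5p (4.92).

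Markers of cell types were set beside the families. The 8 miRNAs of intestinal epithelium and HCT116 cells each had reads in at least 1 library. However, 5 of the 8 were at 0 in each of siCTL 1, siCTL 2 and siPRDX3 2. In siPRDX3 3, 2 were at 0, and in siCTL 3 and in siPRDX3 1 it was 1. Together the 8 took 0.0996%, 0.0741% and 1.11% of the siCTL libraries and 0.453%, 0.107% and 0.504% of the siPRDX3 libraries. They were thus also low in siCTL 1 and siCTL 2, and in siPRDX3 2. The 4 red cell and serum miRNAs, of which miR-144-3p was at 0 throughout, took 3.97% to 5.43% in siCTL and 1.05% to 3.46% in siPRDX3. The 2 hepatocyte miRNAs took 0.0593% to 5.35% and 2.44% to 9.63%. In every library but siCTL 3, 2 of the 4 red cell and serum miRNAs were at 0. In every library but siPRDX3 1, 1 of the 2 hepatocyte miRNAs was at 0. Neither list was missing from siCTL 1, which lacked miR-100-5p, miR-99b-5p and the miR-125 members. Of the 5 fibroblast and smooth muscle miRNAs 4 were at 0 in all libraries (miR-145-5p, miR-199a-3p, miR-199a-5p and miR-214-3p) and the list reached at most 0.00707% of a library, and of the 2 endothelial miRNAs miR-126-5p was at 0 and the list reached at most 0.218%, in siPRDX3 3. Of the 6 leukocyte and platelet miRNAs 3 were at 0 (miR-142-3p, miR-223-3p and miR-150-5p) and the list reached at most 0.406%, also in siPRDX3 3. The neuronal list, with miR-124-3p at 0, reached at most 0.122% and the striated muscle list, with miR-133a-3p at 0, at most 0.154%. Their part in the results on the members was not tested.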

How the data were processed

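Small RNA was measured in 6 libraries. The authors deposited 1 table per library, with log2(value + 1) levels of 2588 entries. Bowtie2 and bedtools 2.25.0 are named in the submitters' processing notes, with no role. The genome build, annotation, scaling and handling of multiply mapped reads were not given in the sources used here. Reads were recovered from the steps of the deposited log2 values, and 100% of those at or under 100 reads were whole numbers within 0.1 read. Values have 3 decimals, so high counts are approximate. The design's count test did not apply to log2 values. limma 3.58.1 (R 4.3.3) with eBayes trend and no covariates was fitted two-sided over all 80 tested miRNAs, with Benjamini-Hochberg adjustment at 0.05. A run on simulated counts had no libraries in which many miRNAs were missing, so it does not bear on how the fit behaves here. Shares and ratios used recovered reads, with scipy 1.17.1 for intervals. Alternatives covered scaling, filter, pseudocount, limma-voom, a replicate block and left-out libraries. The members and lists were chosen with earlier results of these data known. The text names the 5 members, their let-7 partners and opposite arms, miR-10a-5p and miR-10b-5p, entries with a member's seed, the 5 nearest patterns of each tested member, and the marker lists. Other names were chosen after their values were seen. Sequences came from RefSeq (GRCh38.p14) and hairpin positions from GENCODE v29 on GRCh38; they were not used for counting.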

Additional observations from a re-analysis of the deposited data

How the results depend on the processing

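Of 15 alternatives, 13 kept the count of miRNAs past the threshold at 0. limma-voom with TMM factors gave 1, and leaving out 1 library gave 0 to 20, with the 20 found without siCTL 3. For miR-100-5p, 13 alternatives kept the direction and stayed above the threshold; leaving out 1 library gave log2 fold changes of 4.15 to 10.95, passing without siCTL 3, and leaving out siCTL 1 and siCTL 2 together gave −0.47. For miR-99b-5p the same 13 held; leaving out 1 library gave 3.36 to 9.30, again passing without siCTL 3, and leaving out siCTL 1 and siCTL 2 gave −0.39. Adjusted p ranged from 0.00797 to 0.913 for miR-100-5p and from 0.0132 to 0.913 for miR-99b-5p. miR-99a-5p kept its direction in its 14 alternatives (1.04 to 2.72, adjusted p 0.327 to 0.842); the stricter filter left it out. The difference in the share of the 5 members together was 4.06 percentage points without miR-4451, 1.36 without siCTL 1 and siCTL 2, and 2.17 to 3.31 with 1 library left out. For miR-125a-5p and miR-125b-5p this difference turned to −0.0482 and −0.031 without siPRDX3 1, and that of miR-125b-5p to −0.00112 without siCTL 1 and siCTL 2. Mean log2 ratios of cluster partners moved by less than their SD over libraries in every alternative run. Leaving out 1 library cannot move a mean by more than that SD, so this does not show that the ratios were steady. Over the alternatives, the mean log2 ratio of miR-99a-5p to miR-125b-5p ran from −3.92 to 1.03. That of miR-99b-5p to miR-125a-5p ran from 2.63 to 6.76, and that of miR-100-5p to miR-125b-5p from 3.59 to 5.52. In alternatives chosen after seeing the data, leaving out siCTL 1 and siCTL 2 turned let-7e-5p to −2.02 and miR-10a-5p to −1.31; let-7a-5p turned to 0.13 on library totals and to 0.06 by limma-voom, and miR-10b-5p to 0.05 on library totals without miR-4451. With 1 library left out, miR-10a-5p ran from −1.29 to 6.28 and miR-10b-5p from −5.44 to 1.83. The cause of these shifts was not tested. With the replicate number as a block, 0 miRNAs passed (7 unadjusted), and the fold changes were unchanged at 7.15, 6.07 and 1.78 (adjusted p = 0.427, 0.466 and 0.759 for miR-100-5p, miR-99b-5p and miR-99a-5p). Deviations of same-numbered libraries from their group means correlated at −0.24, 0.18 and 0.14 over 80 miRNAs, and siCTL 1 correlated best with siPRDX3 2 (0.24), so the number was not taken to pair libraries. Few reads limit what can be said of miR-99a-5p, with 1 to 7 reads in siCTL. The miR-125 members had 0 to 2 reads in siCTL 1, siCTL 2, siPRDX3 2 and siPRDX3 3. At the share of siCTL 3, siCTL 1 and siCTL 2 would have held 60 and 120 reads of miR-125a-5p, and 39 and 78 of miR-125b-5p. The cause of their low counts was not tested.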
